A study of Mus musculus with 6 samples.

Results

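The immediate early genes described here are 9 transcription factor and signaling genes, Fos, Fosb, Jun, Junb, Jund, Egr1, Ier2, Ier3 and Myc, and the phosphatase gene Dusp1. They were taken by name from a table of 41388 mouse genes, whose Ensembl identifiers were matched to GENCODE M21 symbols, and all 10 had a row. The table came from RNA sequencing of primary hepatocytes of C57BL/6J mice, the parenchymal cells of the liver, which had been isolated with collagenase and kept in culture overnight. The control cultures then received adenovirus encoding β-galactosidase (β-gal), and the others adenovirus encoding Aloxe3, an epidermal-type lipoxygenase. The dose was about 1000000 viral particles per 1000000 cells in both groups, and RNA was collected after 24 h. There were 3 libraries per group, β-gal replicates 1, 2 and 3 and Aloxe3 replicates 7, 8 and 9, all from a single sequencing run. Every culture had thus been exposed to virus and to isolation, no untreated culture was analysed here, and the labels do not say whether the replicates came from different animals, so that p-values measure the spread between these libraries. The comparison asks whether forced expression of Aloxe3 was accompanied by a different level of these genes at 24 h.

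Immediate early genes are switched on within minutes of a stimulus, without new protein synthesis, when growth factors, cytokines or stress activate the MAPK cascades. The Fos proteins pair with Jun proteins to form the transcription factor AP-1, while Egr1 is a zinc-finger factor and Myc drives growth and ribosome production with its partner Max. Dusp1 closes the loop by removing phosphate from p38, JNK and ERK. Their mRNAs are short-lived, many through AU-rich elements, and in the liver they are known for their induction after partial hepatectomy and on isolation and plating of hepatocytes.

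The 250 bases before the RefSeq start site (GRCm38.p6) are shown for the 4 genes, among 7 whose windows were in the promoter table used here, that hold the letters TGACG on either strand, the core of the cyclic AMP response element through which CREB acts on immediate early genes. The 7 genes were Fos, Fosb, Jun, Junb, Jund, Ier3 and Dusp1. The sequences read 5′ to 3′ toward the start site, and capitals mark TGACG, the full element TGACGTCA, the E-box CACGTG bound by Myc and Max, the Egr1 letters GCGGGGGCG, the CCAAT box and the TATA box TATAAA.
Fos, chr12:85473640-85473889, plus strand: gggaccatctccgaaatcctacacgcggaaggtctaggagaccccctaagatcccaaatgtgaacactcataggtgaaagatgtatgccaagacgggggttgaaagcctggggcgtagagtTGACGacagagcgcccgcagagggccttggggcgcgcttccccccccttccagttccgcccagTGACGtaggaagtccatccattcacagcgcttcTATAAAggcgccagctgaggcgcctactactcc
Fosb, chr7:19310046-19310295, minus strand: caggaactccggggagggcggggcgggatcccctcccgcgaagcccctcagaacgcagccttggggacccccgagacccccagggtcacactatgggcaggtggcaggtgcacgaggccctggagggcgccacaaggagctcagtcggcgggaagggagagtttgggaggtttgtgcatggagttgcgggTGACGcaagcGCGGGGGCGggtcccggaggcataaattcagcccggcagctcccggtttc
Junb, chr8:84978749-84978998, minus strand: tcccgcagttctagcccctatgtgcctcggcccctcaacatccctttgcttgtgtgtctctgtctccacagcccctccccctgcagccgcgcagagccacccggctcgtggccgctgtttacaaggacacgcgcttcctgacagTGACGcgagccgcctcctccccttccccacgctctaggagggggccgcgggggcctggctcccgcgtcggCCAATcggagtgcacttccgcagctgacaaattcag
Dusp1, chr17:26508473-26508722, minus strand: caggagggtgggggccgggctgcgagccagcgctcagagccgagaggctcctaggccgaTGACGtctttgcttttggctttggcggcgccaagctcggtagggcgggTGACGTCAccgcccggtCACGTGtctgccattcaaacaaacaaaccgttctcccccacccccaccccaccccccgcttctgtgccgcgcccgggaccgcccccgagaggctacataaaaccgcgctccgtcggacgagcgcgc

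The letters TGACG stood in 17.8% of the 32851 RefSeq windows of the same length. Dusp1 held the full TGACGTCA, from 143 to 136 bases before the start, with CACGTG 126 to 121 bases before it. The full element stood in 1.55% of all windows and CACGTG in 6.02%. In Fos, the TATA box lay 33 to 28 bases before the start, and the same letters stood in 12.4% of windows. Fosb held GCGGGGGCG, found in 2.57% of windows. The AP-1 letters TGAGTCA and the CArG box, to which SRF binds, were in none of the 7 windows, and in 4.46% and 1.47% of all windows. Sites more than 250 bases before the start were not searched, and Egr1 had no window. CCAAT was in Jun, Junb and Ier3 and in 33.8% of windows. Both strands were searched, and TGACGTCA contains TGACG on each. A match is a match of letters and not a measured binding site.

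Aloxe3 itself, on chromosome 11 (69125896 to 69149115, GRCm38), was at 2.04, 2.06 and 1.74 RPKM (the read count of a gene divided by its length and the library size) in β-gal replicates 1 to 3 and at 42.3, 45.8 and 56.3 RPKM in Aloxe3 replicates 7 to 9 (log2 fold change of RPKM + 1, 4.05 ± 0.10 SE, n = 3 per group, adjusted p = 4.74e-06, limma). Library sizes derived from the RPKM steps were 25521908 to 32431318 reads. Of the hepatocyte markers, Alb averaged 4485 RPKM, and the list summed to 5214 to 5243 RPKM with β-gal and 5018 to 5182 with Aloxe3. Without Alb the sums were 691 to 714 RPKM and 656 to 669 RPKM. Of 8 hepatocyte markers tested, 1 was past the threshold, Ttr, at 119 to 131 RPKM with β-gal and 99.4 to 102 with Aloxe3 (log2 fold change, -0.30 ± 0.04, adjusted p = 0.0448, limma; 0.108 without Aloxe3 replicate 9). Cps1, at 0.915 to 1.05 and 1.29 to 1.64 RPKM (adjusted p = 0.161), and Tat, at 0.193 to 0.346 and 0.438 to 0.661 RPKM and below the filter, were low in both groups. Of 9 Kupffer cell markers, 6 averaged at least 0.5 RPKM. Cd68 averaged 140.5 RPKM, Clec4f 0.0588 and Vsig4 0.0467. Without Cd68 the Kupffer markers summed to 5.772 to 8.407 RPKM with β-gal and 5.079 to 6.765 with Aloxe3. The whole list summed to 152 to 157 RPKM with β-gal and 134 to 148 with Aloxe3, and the liver endothelial list to 26.0 to 30.1 RPKM and 25.9 to 30.0. The stellate cell list summed to 4.33 to 4.93 RPKM over all libraries, with Lrat at 0 in each. The cholangiocyte list was at 1509 to 1593 RPKM with β-gal and 1577 to 1716 with Aloxe3, nearly all of it Spp1 (1521 RPKM), which is also expressed outside cholangiocytes, with Krt19 at 40.7 and Sox9 at 42.3 RPKM. The part of other cells in the values below was not tested, and in bulk RNA a different share of cells and a different level per cell cannot be told apart.

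Aloxe3 replicate 9 stood apart from replicates 7 and 8. Over the 12693 tested genes (mean level of 0.5 RPKM or more), its median absolute deviation from the mean of its 2 group members was 0.083 on the log2(RPKM + 1) scale, against 0.047 to 0.065 for the other 5 libraries. Mitochondrially encoded protein genes summed to 27897 RPKM in replicate 9 and to 20397 to 22313 RPKM in the others. Its library size of 26429669 reads lay between the 25521908 of replicate 7 and the 30399198 of replicate 8. Values with and without this library are given below.

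For none of the 10 immediate early genes was a difference between Aloxe3 and β-gal detected beyond the spread between replicates. All 10 passed the filter at a mean of 0.5 RPKM, and 0 of 10 were past an adjusted p of 0.05 (limma on log2(RPKM + 1), Benjamini-Hochberg adjustment over all tested genes), with adjusted p from 0.478 for Dusp1 to 0.952 for Egr1. Over all tested genes, 50 or 0.394% were past it, and 1616 or 12.7% had an unadjusted p under 0.05, which 0 of the 10 did. Neither did voom on the derived reads call any of them, although Dusp1 then had an unadjusted p of 0.0405. Groups overlapped in all 10, whereas 19.9% of tested genes had groups that did not. The log2 fold change was above 0 in 9 of 10, against 52.4% of all tested genes, with a median of 0.04 against 0.005. Without Aloxe3 replicate 9, it was above 0 in 6 of 10, with a median of 0.012 both for these genes and for all genes tested.

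**Figure D1:**
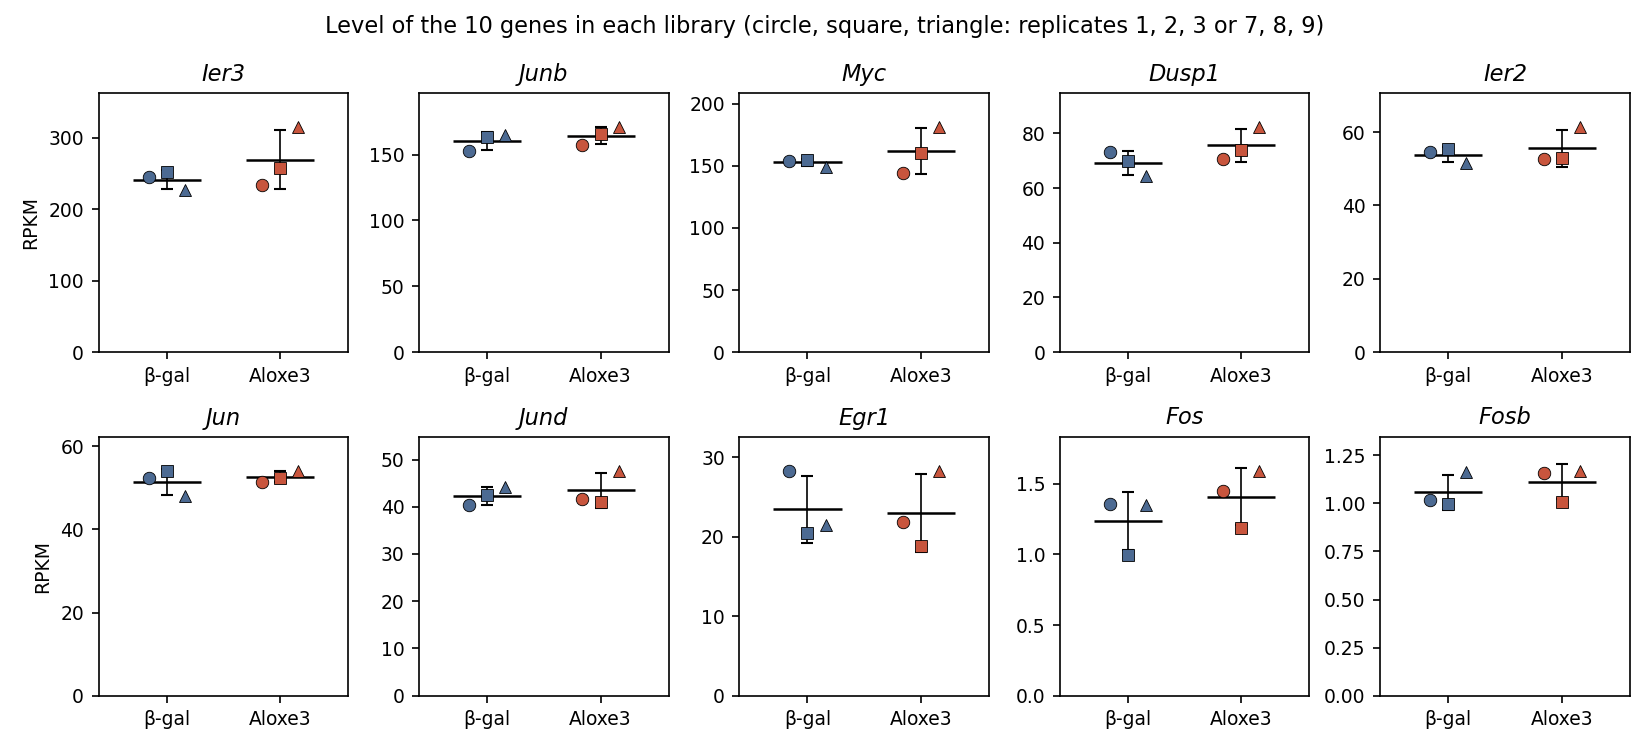
RPKM (vertical axes, starting at 0) of each of the 10 genes in the 3 β-gal (blue) and 3 Aloxe3 (red) libraries, ordered by mean level; lines and bars are the mean and SD over 3 libraries, and circle, square and triangle are replicates 1, 2 and 3 or 7, 8 and 9. The groups overlap in every panel, and the red triangle, Aloxe3 replicate 9, is the highest point in each, level with β-gal replicate 1 for Egr1.

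The levels per length ran over a wide range, in an order that all 6 libraries shared but for Junb and Myc. Ier3 averaged 255 RPKM and ranked 138 among the 12693 tested genes, whereas Fosb averaged 1.08 RPKM and ranked 10896. Between them, Junb and Myc were level with each other, at 163 and 157 RPKM on average, with Junb higher in 4 of 6 libraries. Every other neighbor in the order was lower in all 6 libraries, although the ranges over libraries of Ier2 and Jun and of Fos and Fosb overlapped. The step from Egr1 to Fos was the largest, with a ratio of mean levels of 17.6. The 8 genes from Ier3 to Egr1 lay between the percentiles 79.9 and 98.9 of tested genes, and Fos and Fosb at 17.5 and 14.2.

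The Jun genes encode the partners that can form AP-1 among themselves or with Fos proteins. Junb, on chromosome 8 (84974484 to 84978718, minus strand, 1 exon), was at 153, 164 and 165 RPKM in β-gal replicates 1 to 3 and at 157, 165 and 171 RPKM in Aloxe3 replicates 7 to 9. Replicate 9 lay above the β-gal libraries and replicate 8 scarcely so, and the log2 fold change of Junb was 0.04 ± 0.05 (SE; 95% interval, -0.07 to 0.14; adjusted p = 0.789, limma). Jun, on chromosome 4 (95049034 to 95052222, minus strand, 1 exon), was at 52.3, 54.1 and 48.1 RPKM with β-gal and at 51.4, 52.5 and 54.1 RPKM with Aloxe3. The highest values of both groups were thus nearly the same, and the difference of 0.03 ± 0.05 had an adjusted p of 0.805 (limma). Jund, on chromosome 8 (70698949 to 70700616, plus strand, 1 exon), known as the most steadily expressed of the Jun genes, was at 40.3, 42.4 and 44.2 RPKM with β-gal and at 41.7, 41.1 and 47.6 RPKM with Aloxe3. Replicate 9 alone lay above the β-gal range. For Jund, the log2 fold change was 0.04 ± 0.06 (adjusted p = 0.85, limma), and -0.03 without that library. Summed, the 3 Jun genes held 245 to 273 RPKM across the 6 libraries.

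Fos and Fosb, the partners of Jun that do not pair with themselves, were barely expressed. Fos, on chromosome 12 (85473890 to 85477273, plus strand, 4 exons), was at 1.36, 1.00 and 1.35 RPKM with β-gal and at 1.45, 1.19 and 1.59 RPKM with Aloxe3. These values rested on 76 to 103 reads per library, at which counting alone gives a coefficient of variation of up to 11.5%. Fos had a log2 fold change of 0.11 ± 0.09 (95% interval, -0.11 to 0.33; adjusted p = 0.659, limma) on the log2(RPKM + 1) scale, which understates changes at this level. With voom on the derived reads it was 0.19, with an interval from -0.16 to 0.54. Fosb, on chromosome 7 (19302696 to 19310051, minus strand, 4 exons), was at 1.02, 0.995 and 1.16 RPKM with β-gal and at 1.16, 1.01 and 1.17 RPKM with Aloxe3. It rested on 111 to 129 reads, both groups spanned nearly the same values, and the fold change was 0.04 ± 0.07 on the log2 scale (adjusted p = 0.848, limma). Fos and Fosb together came to 1.99 to 2.76 RPKM, whereas the Fos-related antigens Fosl1 and Fosl2 came to 77.1 to 105 RPKM.

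Egr1 was the most variable of the 10 in both groups. This factor, on chromosome 18 (34859823 to 34864984, plus strand, 2 exons), was at 28.3, 20.5 and 21.5 RPKM with β-gal and at 21.9, 18.8 and 28.3 RPKM with Aloxe3. Each group thus held a single high library, β-gal replicate 1 and Aloxe3 replicate 9, at 28.32 and 28.33 RPKM. The coefficients of variation were 18.1% and 21.1%, against at most 2% from counting, as the gene had 2508 to 4097 reads per library. For Egr1 the log2 fold change was -0.03 ± 0.16, and its 95% interval reached from -0.40 to 0.34 (adjusted p = 0.952, limma). Leaving out Aloxe3 replicate 9 moved it to -0.19 (adjusted p = 0.624), and leaving out β-gal replicate 1 to 0.11 (adjusted p = 0.845).

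Ier2 and Ier3 are early response genes outside the AP-1 and zinc-finger families. Ier2, a nuclear regulator on chromosome 8 (84661331 to 84662852, minus strand, 1 exon), was at 54.5, 55.4 and 51.5 RPKM with β-gal and at 52.5, 52.8 and 61.3 RPKM with Aloxe3. Replicate 9 was above all other values and replicates 7 and 8 lay within the β-gal range. A log2 fold change of 0.04 ± 0.06 (adjusted p = 0.819, limma) became -0.03 without replicate 9. Ier3, a survival and stress gene on chromosome 17 (35821684 to 35822923, plus strand, 2 exons), was the most abundant member, at 245, 252 and 228 RPKM with β-gal and at 235, 258 and 315 RPKM with Aloxe3. Its log2 fold change was 0.15 ± 0.10 (95% interval, -0.09 to 0.38; adjusted p = 0.577, limma), and its SD over 3 libraries was 41.2 RPKM with Aloxe3 against 12.7 RPKM in the control. Without replicate 9, the log2 fold change was 0.03.

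Myc, on chromosome 15 (61985391 to 61990374, plus strand, 3 exons), had the tightest β-gal values, at 154, 155 and 149 RPKM (coefficient of variation, 1.94%). With Aloxe3 it was at 144, 160 and 181 RPKM, so that the Aloxe3 libraries held both the lowest and the highest value of the 6. Its log2 fold change was 0.08 ± 0.08 (95% interval, -0.10 to 0.25; adjusted p = 0.712, limma), and it was -0.01 without replicate 9.

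Dusp1, the feedback phosphatase, had the smallest p of the 10. On chromosome 17 (26505590 to 26562128, minus strand, 4 exons), it was at 73.1, 70.0 and 64.3 RPKM with β-gal and at 70.8, 73.9 and 82.3 RPKM with Aloxe3. Replicates 8 and 9 exceeded the β-gal libraries and replicate 7 lay among them. The log2 fold change was 0.13 ± 0.07 (95% interval, -0.03 to 0.28; unadjusted p = 0.0965, adjusted p = 0.478, limma), or 9.23% higher with an interval from -1.99% to 21.7%. Leaving out replicate 9 gave 0.07 (adjusted p = 0.669), and over all alternatives adjusted p lay between 0.318 and 0.729.

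**Figure D2:**
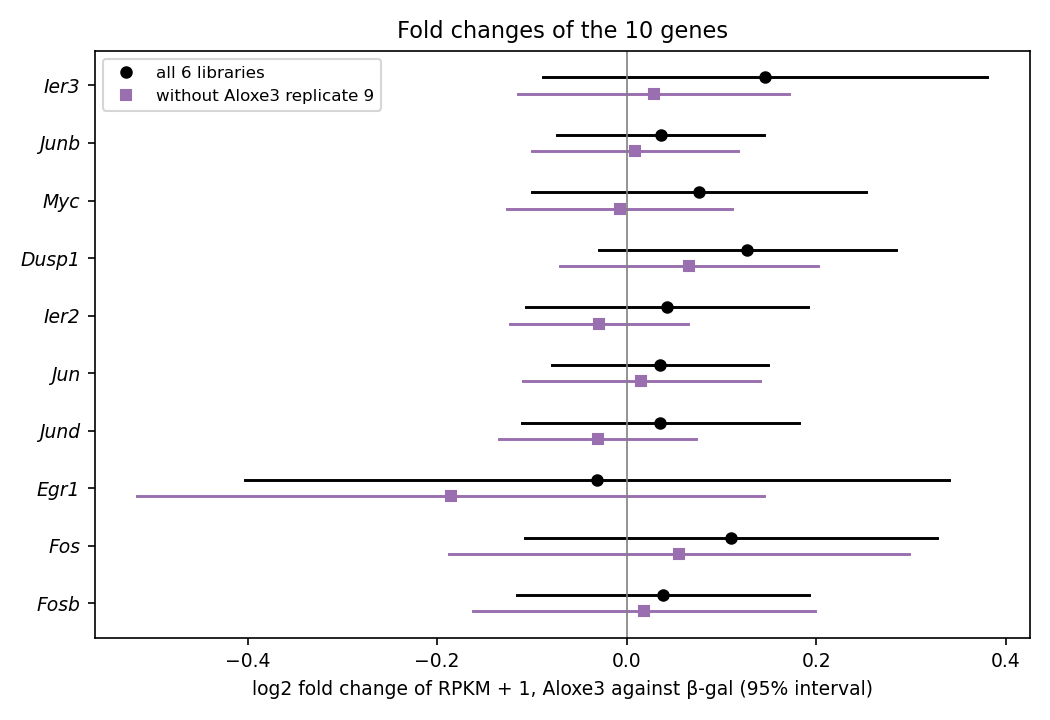
Log2 fold change of RPKM + 1 between Aloxe3 and β-gal for each gene with its 95% interval from limma, with all 6 libraries (black circles) and without Aloxe3 replicate 9 (purple squares). All intervals include 0; without replicate 9 the values of Jund, Ier2 and Myc are below 0 and that of Egr1 is lower, at -0.19.

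The intervals set what could have been missed. With all libraries, the upper ends reached 10.5% for Junb, 10.8% for Jun, 13.4% for Jund, 14.2% for Ier2, 19.1% for Myc, 21.7% for Dusp1 and 30.2% for Ier3. The lower ends for these genes were between -7.37% and -1.99%. Egr1 was less well bounded, from -24.4% to 26.5%. Without Aloxe3 replicate 9, the upper ends came down to 4.61% for Ier2, 5.22% for Jund, 8.02% for Myc, 10.6% for Egr1 and 12.6% for Ier3. The lower ends moved down as well, to -8.2% for Ier2, -8.93% for Jund, -8.36% for Myc, -30.1% for Egr1 and -7.65% for Ier3. Bounds for Fos and Fosb are given from voom on the derived reads, -10.3% to 44.9% and -12.6% to 26.2%. Counting error was at most 2.21% for the 8 genes from Ier3 to Egr1, whose coefficients of variation over the libraries of a group were 1.94% to 21.1%. For Fos and Fosb, the counting error was up to 11.5% and 9.49%, beside coefficients of variation of 8.12% to 16.7%.

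The 10 genes did share a pattern across libraries that did not follow the groups. Each had its highest value in Aloxe3 replicate 9, 10 of 10, whereas 2525 of the tested genes or 19.9% were highest there and 3814 were lowest there. On the log2(RPKM + 1) scale, replicate 9 exceeded the mean of replicates 7 and 8 by a median of 0.19 for the 10 genes, against -0.03 for all tested genes. The excess was 0.46 for Egr1, 0.35 for Ier3, 0.25 for Myc and 0.21 for Ier2. It was 0.20 for Jund, 0.18 for Dusp1, 0.16 for Fos, 0.08 for Junb and 0.06 for Jun and Fosb. For Egr1, Jun and Fosb the margin over the next library was slight, as their highest β-gal values were 28.3, 54.1 and 1.16 RPKM. Aloxe3 itself was also highest in replicate 9, at 56.35 RPKM against 42.29 and 45.77 RPKM in replicates 7 and 8, an excess of 0.35. The 10 genes were listed together for their induction by the same stimuli, and they are counted here as a description of 1 library, with no test.

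**Figure D3:**
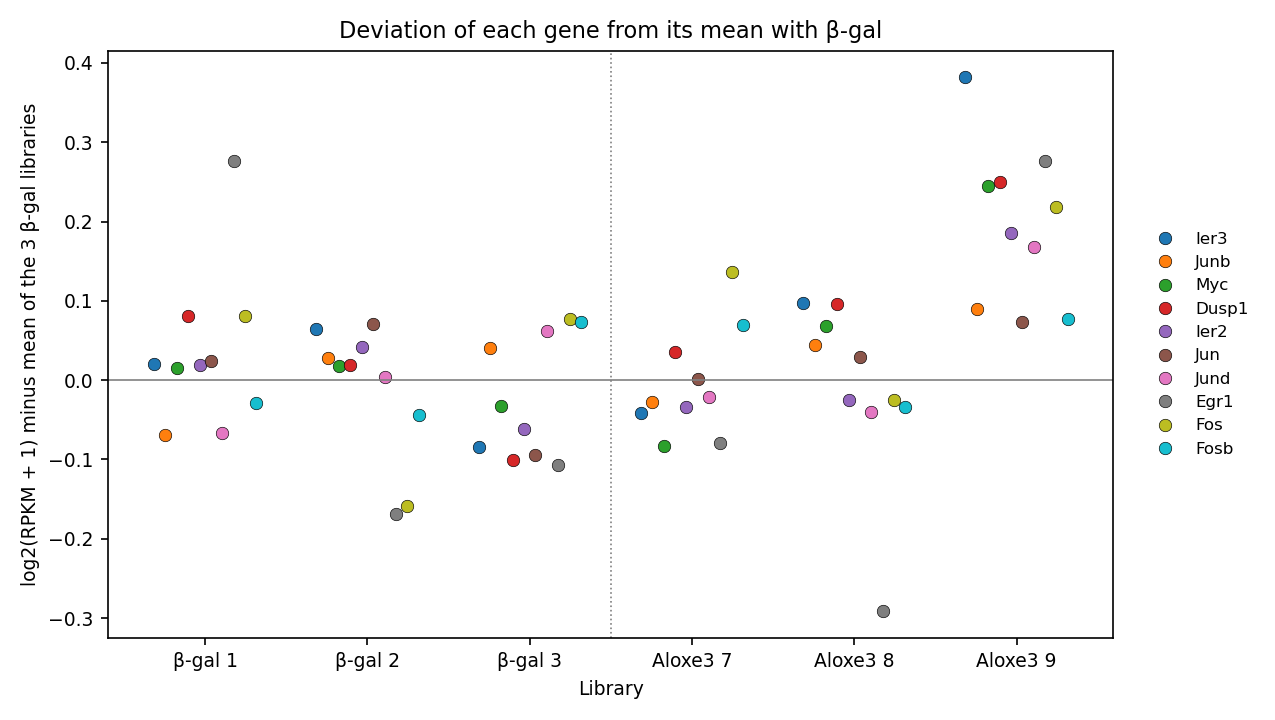
Difference of log2(RPKM + 1) in each library from the mean of the 3 β-gal libraries, 1 point per gene (color), with the 6 libraries along the horizontal axis. All 10 points lie above 0 in Aloxe3 replicate 9, while the other libraries hold points on both sides of 0.

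Under other scalings this count was 8 to 10. It was 10 of 10 after scaling to the same median (25.5% of all genes) and on reads outside the mitochondrial genome (22.2%). Both of these scalings raised replicate 9 against other libraries, as the share of all genes rose from 19.9%. They could therefore hardly lower the count. After quantile normalization it was 9 of 10, without Fosb (22.9%), and after each library was corrected for GC content and length of the transcripts 8 of 10, without Junb and Egr1 (23% of 12619 genes). That correction took the excess of Jund from 0.20 to 0.09 and that of Junb from 0.08 to 0.03, while the excess of the other 8 genes lay between 0.07 for Fosb and 0.46 for Egr1 after it. Genes of at least 57.8% GC had a median excess in replicate 9 of 0.02 and genes of at most 41.4% GC of -0.05, and 3 of the 10 genes were above the former bound, Junb (62.6%), Ier2 (60.9%) and Jund (67.1%). The median span of the 10 genes was 3810 bases with 2 exons, against 19868 bases and 8 exons for all tested genes, and 9 of them spanned at most 7356 bases. The GENCODE extent of Dusp1 was 56539 bases, as it begins well upstream of the RefSeq start used for the sequence above. For Jund the searched window ended at 70697738, upstream of the GENCODE start at 70698949. The length of 2878 bases used for the reads of Jund exceeded its GENCODE span of 1668 bases. Genes with at most 2 exons had a median excess of 0.0003 in replicate 9, and the 230 single-exon protein-coding genes of 0.009. Of the cholangiocyte markers, Sox9 was at 49.4 RPKM in replicate 9 and at 38.3 to 42.0 RPKM in the other libraries. The list without Spp1 summed to 93.0 RPKM in replicate 9, to 78.0 and 74.7 RPKM in replicates 7 and 8, and to 93.5, 78.2 and 83.2 RPKM in β-gal replicates 1 to 3. The part of the level of Aloxe3, of the mitochondrial RNA of replicate 9 and of these markers in the pattern was not tested.

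Among genes of the surrounding pathways, the same library was highest in 54 of 169 tested genes (32%). By list, these were 6 of 11 in the rest of the AP-1 and Maf family, 13 of 35 other immediate early genes, 4 of 15 MAPK phosphatases and Sprouty or Spred inhibitors, and 4 of 31 MAPK cascade kinases and Ras genes. They were also 6 of 15 SRF, TCF and CREB activators, 6 of 12 MYC partners and antagonists, 9 of 30 MYC target genes and 6 of 20 genes for the decay of AU-rich mRNAs. Chosen after their values were seen, the tested genes of these lists with the largest ratio of replicate 9 to the mean of the other 5 libraries were Phlda1 (1.57), Jdp2 (1.37) and Fosl1 (1.36). Phlda1, an early gene of the ERK pathway, was at 77.2, 69.9 and 73.2 RPKM with β-gal and at 70.7, 75.0 and 115 RPKM with Aloxe3. The pair of libraries highest for Egr1, β-gal replicate 1 and Aloxe3 replicate 9, was chosen from its values. The same pair was highest for no other of the 10 genes, for 22 of the 169 pathway genes (13%) and for 5.45% of all tested genes. By list its share ran from 0 of 31 MAPK cascade kinases and Ras genes to 9 of 35 other immediate early genes.

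**Figure D4:**
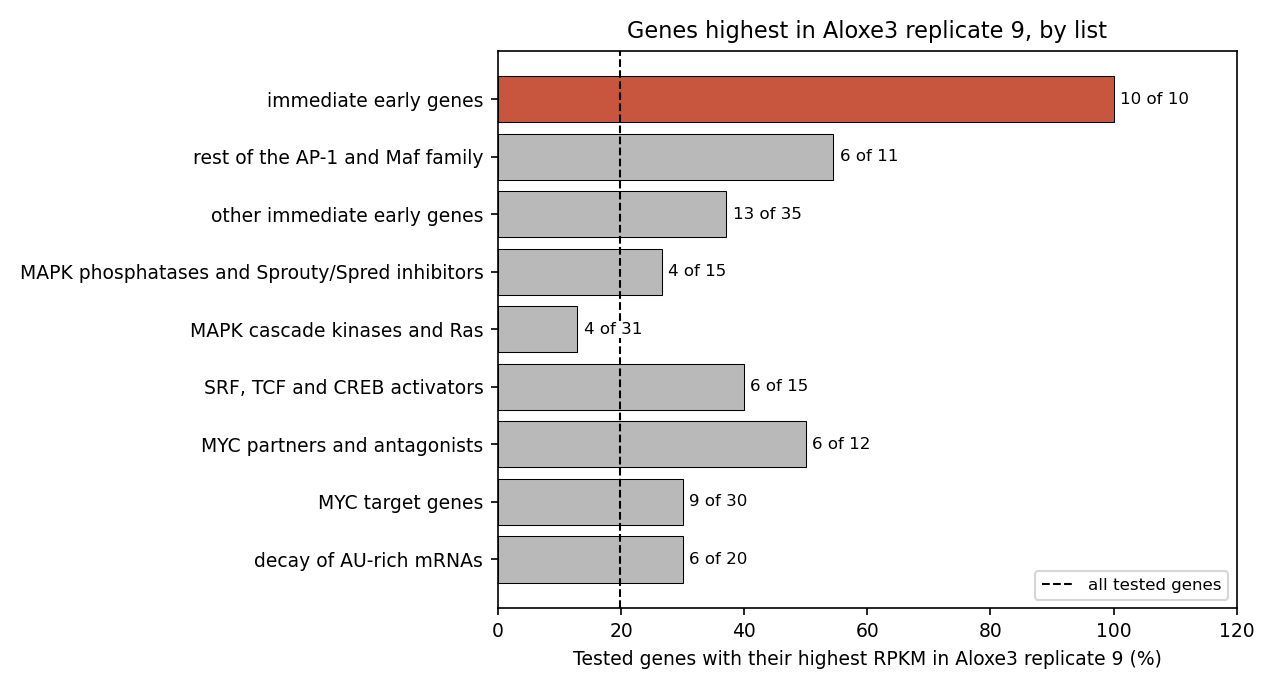
Share of tested genes (horizontal axis, percent) whose highest RPKM was in Aloxe3 replicate 9, for the 10 genes (red) and 8 pathway lists (gray), with the counts beside the bars and the share of all 12693 tested genes as a dashed line at 19.9%. The share is 100% for the 10 genes and lowest, at 12.9%, for MAPK cascade kinases and Ras genes.

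Of 181 genes listed for the pathways around these factors, 180 had a row, 169 were tested, and 1 was past the threshold, as were 0.394% of all tested genes. It was Mlxipl, the glucose-responsive factor ChREBP, which belongs to the extended MYC network through its partner Mlx. Mlxipl was at 12.4, 13.5 and 14.5 RPKM with β-gal and at 18.5, 19.6 and 21.2 RPKM with Aloxe3, with no overlap. The log2 fold change was 0.52 ± 0.07 (adjusted p = 0.0271, limma), and 0.47 without replicate 9. The adjusted p ranged from 0.000167 with voom to 0.155 without a filter on low values, and it was under 0.05 in 6 of 14 alternatives, none of which left out a library. Groups without overlap were found in the 169 genes for 13 higher and 20 lower with Aloxe3. Of all tested genes, 19.9% had groups without overlap, 1427 higher and 1105 lower. Unadjusted p was under 0.05 in 20 of the 169 genes, 5 higher and 15 lower, against 12.7% of all tested genes, of which 928 were higher and 688 lower. By list, these were 3 in the rest of the AP-1 and Maf family, 5 other immediate early genes, 1 phosphatase, 5 kinases, 1 SRF-type activator, 1 MYC partner, 4 MYC targets and 0 genes of mRNA decay, and voom called 3 of all 169, against 174 of all 12693 tested genes.

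Other partners of MYC had no call. Max, the obligate partner and the most abundant of them, was at 39.4 to 40.3 RPKM with β-gal and 38.6 to 41.5 with Aloxe3 (log2 fold change, 0.01 ± 0.04), and Mlx at 17.0 to 18.7 and 16.0 to 17.0 RPKM (-0.09 ± 0.05, adjusted p = 0.459, limma). Of the 12 tested, 6 had a value above 0 and 6 below, with a median of -0.004. Among 30 MYC target genes 0 were called, 13 were above 0 and 17 below, with a median of -0.01. The smallest p were those of Polr1b, a subunit of RNA polymerase I, at 15.6 to 16.6 RPKM with β-gal and 13.6 to 14.8 with Aloxe3 (-0.15 ± 0.04, adjusted p = 0.262, limma), and Ldha, lactate dehydrogenase A, at 258 ± 11.3 and 229 ± 10.4 RPKM (SD, n = 3; -0.17 ± 0.05, adjusted p = 0.262). In both genes the groups did not overlap.

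The rest of the AP-1 and Maf family had 11 tested genes of 14, with 7 above 0 and 4 below and a median of 0.01. The Batf genes were below the filter. Fosl1, a Fos-related antigen, had the highest mean over all libraries, at 66.9, 63.6 and 55.0 RPKM with β-gal and at 56.0, 54.2 and 80.5 RPKM with Aloxe3. Its fold change of 0.02 ± 0.15 (adjusted p = 0.966, limma) became -0.16 without replicate 9. Maff was nearly level with Fosl1, at means of 62.0 RPKM with β-gal and 62.4 with Aloxe3, against 61.8 and 63.6 for Fosl1. Maf was at 2.92 to 3.18 RPKM with β-gal and 3.71 to 4.13 with Aloxe3 (0.26 ± 0.05, adjusted p = 0.136, limma), and Mafk, a small Maf without an activation domain, at 22.0 to 23.7 and 20.7 to 21.1 RPKM (-0.13 ± 0.04, adjusted p = 0.28). Both had groups that did not overlap, and Maf was past the threshold with voom on the derived reads (adjusted p = 0.0114).

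Of 40 other immediate early genes, 35 were tested, with 15 above 0 and 20 below, a median of -0.02 and 0 calls. Egr2, Egr3, Egr4, Nr4a3 and Arc were below the filter, at no more than 0.461 RPKM in any library. Ccn1, a secreted matricellular protein, was the most abundant, at 281 to 314 RPKM with β-gal and 266 to 306 with Aloxe3 (-0.04 ± 0.07, adjusted p = 0.813, limma). Rhob, a small GTPase, was at 138, 140.5 and 136 RPKM with β-gal and at 123, 125 and 116 RPKM with Aloxe3, with no overlap (-0.19 ± 0.04, adjusted p = 0.136, limma), and it was past the threshold with voom (adjusted p = 0.0288). Pim1, a serine/threonine kinase that cooperates with Myc, was at 16.8 to 19.4 RPKM and 20.3 to 22.3 RPKM (0.19 ± 0.06, adjusted p = 0.289).

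Upstream, 15 SRF, TCF and CREB activators were tested, 12 above 0 and 3 below, with a median of 0.03 and 0 calls. Srf, the factor that binds the CArG boxes of Fos and Egr1, was at 41.2, 38.5 and 37.8 RPKM with β-gal and at 35.5, 34.1 and 35.2 RPKM with Aloxe3. All 3 Aloxe3 libraries lay below the β-gal libraries (-0.16 ± 0.04, unadjusted p = 0.00633, adjusted p = 0.244, limma), and the value was the same, -0.16, without replicate 9. Crebbp, a coactivator of CREB, was at 18.9 to 19.3 RPKM and 19.2 to 23.1 RPKM (0.12 ± 0.06, adjusted p = 0.499), and Nab1, a corepressor of Egr1 and the most abundant of the list, at 38.3 to 39.0 and 37.4 to 40.7 RPKM (0.03 ± 0.04).

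Of 31 MAPK cascade kinases and Ras genes tested, 13 were above 0 and 18 below, with a median of -0.02 and 0 calls. Mapk3 (ERK1) was the most abundant, at 83.5 to 90.3 RPKM with β-gal and 85.7 to 91.5 with Aloxe3 (0.02 ± 0.04, adjusted p = 0.911, limma). Mapkapk3, a kinase downstream of p38, was at 15.6 to 16.1 RPKM and 13.7 to 14.5 RPKM (-0.16 ± 0.04, adjusted p = 0.195), and Rps6ka4, the nuclear kinase MSK2, at 32.3 to 32.8 and 29.2 to 32.0 RPKM (-0.11 ± 0.04, adjusted p = 0.357). Among the phosphatases and inhibitors that share the feedback role of Dusp1, 15 of 17 were tested, 7 above 0 and 8 below, with a median of -0.01 and 0 calls. Dusp10 was as abundant as Dusp1, at 67.7 to 72.5 and 69.3 to 76.8 RPKM (0.06 ± 0.05, adjusted p = 0.619). Dusp4 was at 41.4 to 46.6 and 38.4 to 41.2 RPKM, without overlap (-0.15 ± 0.05, adjusted p = 0.321), and Dusp9 at 7.04 to 7.44 and 5.91 to 7.46 RPKM (-0.14 ± 0.08, adjusted p = 0.489).

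Among genes for the decay of AU-rich mRNAs, the route by which many immediate early transcripts are removed, 20 of 20 were tested, 16 above 0 and 4 below, with a median of 0.02 and 0 calls. Khsrp, a binding protein of AU-rich elements, was the most abundant, at 45.4 to 51.7 RPKM with β-gal and 48.7 to 52.2 with Aloxe3 (0.06 ± 0.05, adjusted p = 0.697, limma). The exosome subunit Exosc4 (-0.11 ± 0.05) and the decapping enzyme Dcp2 (-0.07 ± 0.04) had the smallest p of the list, with adjusted p of 0.432 and 0.52.

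**Figure D5:**
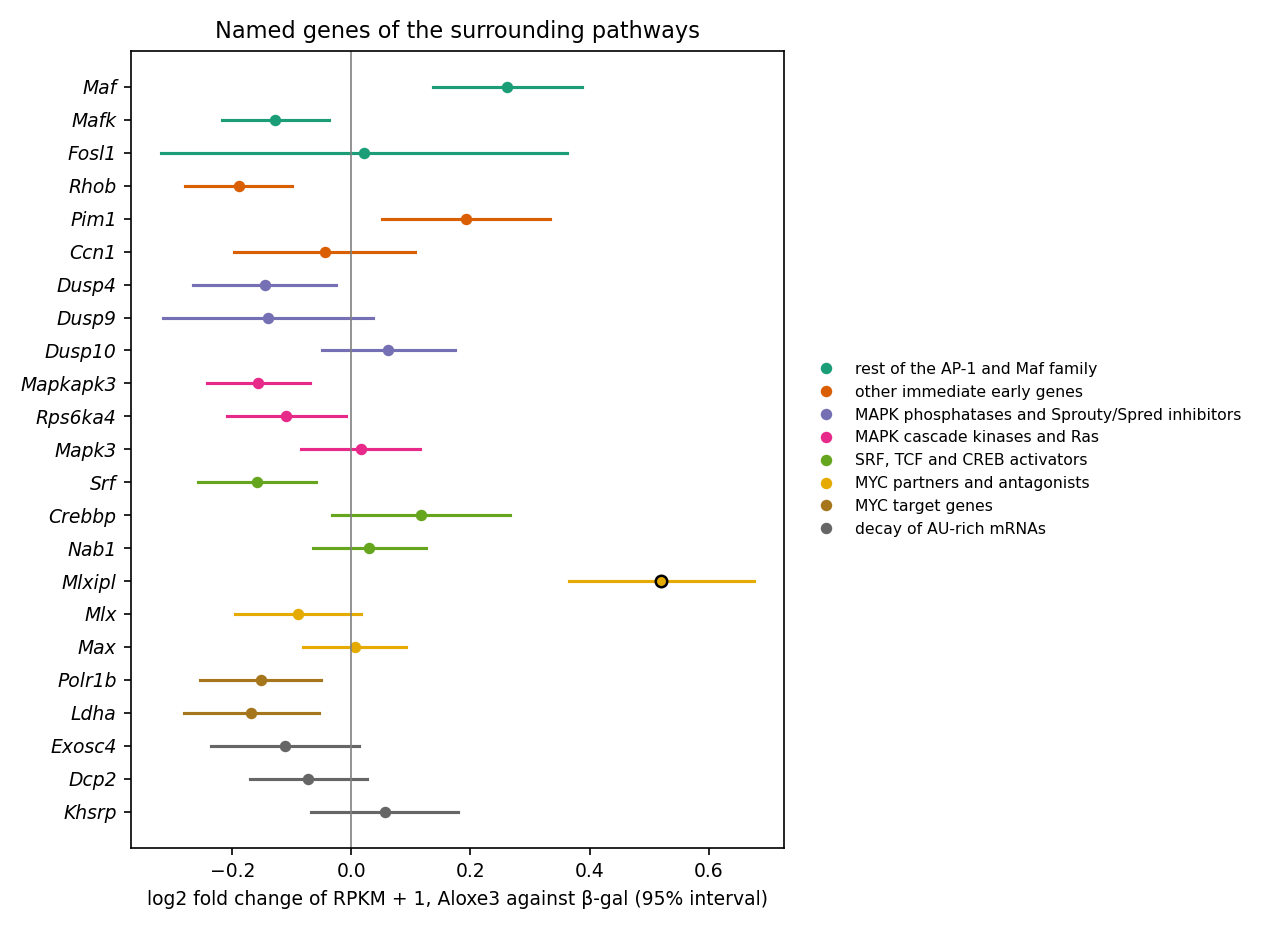
Log2 fold change of RPKM + 1 between Aloxe3 and β-gal (horizontal axis) with its 95% interval from limma for the named genes of the 8 pathway lists (colors). The outlined point, Mlxipl at 0.52, is past an adjusted p of 0.05, and no other gene shown is.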

How the data were processed

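RNA of 6 libraries of primary murine hepatocytes was sequenced as single reads of 50 bases, after poly-A selection. The authors aligned the reads with STAR 2.0.4b (GRCm38.p2 per the labels), took counts of unambiguous, uniquely aligned reads from featureCounts 1.4.5 and deposited RPKM values for 41388 genes. The gene lengths behind the RPKM, and whether counting used strand, are not given in the sources used here. Parts of exons of Jun, Junb, Jund and Dusp1 overlap genes on the other strand (by 232, 173, 877 and 11 bases), whose reads cannot be told apart without strand.

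Symbols and positions are those of GENCODE M21 (GRCm38), which matched 40254 identifiers and not 1134. The RPKM of a gene move in steps of 1 read, which gave the library size. Reads were derived with the GENCODE length for 16539 genes and for 8450 with the shortest length at which reads are whole (within 0.02), so that the reads of the latter, among them Junb, Myc, Dusp1, Jund and Fosb, are known up to a common factor. They added up to at least 99.92% of each library size. Counting errors cover counting only.

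Groups came from the sample titles. Values were tested as log2(RPKM + 1), with a pseudocount of 1, in 12693 genes (mean RPKM of 0.5 or more), 3 Aloxe3 against 3 β-gal libraries without covariates, two-sided. The fit used lmFit and trended eBayes of limma 3.58.1 (R 4.3.3), with p adjusted after Benjamini and Hochberg and a threshold of 0.05. An exact permutation test of 3 against 3 cannot reach 0.05. Reads were also simulated for Aloxe3 against β-gal, with 200 of 12698 genes changed by a known factor. Recovered were 11 of 50 genes changed 1.25-fold, 45 of 50 changed 1.5-fold and 49 of 50 changed 2-fold. Of 12498 unchanged genes, 9 were called. Whether these rates hold for genes that vary as much as Egr1, or with a library apart like Aloxe3 replicate 9, was not tested. The members, gene lists and tests were chosen with earlier results of these data known. Named are Aloxe3, the 10 genes, and in each list every gene past the threshold, the 2 with the smallest unadjusted p and the most abundant. Spry3 had no row of that name. Promoters are from RefSeq. Python 3.11.15 and matplotlib 3.10.9 were used for summaries and figures.

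Alternatives were a smaller pseudocount (0.1), all genes without the filter, a stricter filter (mean of 5 RPKM or more), the same median in each library, quantile normalization, eBayes without trend, voom on the derived reads, and each library left out in turn. A correction for transcript GC content and length (splines with 5 degrees of freedom) and the other scalings of the count of genes highest in replicate 9 were added after seeing the data.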

Additional observations from a re-analysis of the deposited data

How the results depend on the processing

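Over the 14 alternatives, 0 of the 10 immediate early genes were past the threshold (0 of 8 at a mean of at least 5 RPKM, where Fos and Fosb were not tested), and the smallest adjusted p of any of them was 0.313. Of 138 fits of single genes, 131 kept their direction. Those that turned it were Fosb at -0.007 with quantile normalization, Jun at -0.013 without β-gal replicate 3, and Jund at -0.031, Ier2 at -0.029 and Myc at -0.007 without Aloxe3 replicate 9. Egr1 turned to 0.106 without β-gal replicate 1 and to 0.098 without Aloxe3 replicate 8. With a library left out, Jun ranged from -0.013 to 0.07, Jund from -0.031 to 0.074, Egr1 from -0.186 to 0.106, Ier2 from -0.029 to 0.08, Myc from -0.007 to 0.156, Fos from 0.03 to 0.177, Fosb from 0.016 to 0.074, Junb from 0.001 to 0.068, Ier3 from 0.028 to 0.24 and Dusp1 from 0.066 to 0.173. The median of the 10 genes ranged from 0.012 without Aloxe3 replicate 9 to 0.078 without Aloxe3 replicate 8. Over all genes, 50 were past the threshold, 7 without a filter, 174 with voom on the derived reads, and 6 to 19 when a library was left out. Of the pathway genes 1 was past it, 0 without a filter, 0 with eBayes without trend, 3 with voom (Mlxipl, Maf and Rhob) and 0 whenever a library was left out. The cause was not tested. Rescaling to the same median moved the median of all genes by -0.012.

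No paired analysis was possible because the replicate numbers of the groups, 1 to 3 and 7 to 9, are not shared. Fos and Fosb rest on 76 to 129 reads per library, the labels do not tie replicates to animals, all libraries are of 1 time point, and the time course of these genes before 24 h was not analysed here.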
